A study of Homo sapiens with 16 samples.

Results

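TRAF1 and 8 further genes of the NF-kB pathway were followed through a knockdown of the splicing factor HNRNPH1 in 2 established human cell lines. The 9 genes are TRAF1, TRAF2, NFKB1, NFKB2, RELA, RELB, NFKBIA, BIRC3 and TNFAIP3, of 61906 genes in the short-read tables, and each was found by its symbol in both tables. TRAF1 was chosen by its measured response to the siRNA in both lines, so its levels and differences are given as a description, without a test. The other 8 were listed by name as partners or targets of the same pathway, with earlier results of these data known. Their p-values do not allow for that choice. HEK-293T is a human embryonic kidney line with a stably expressed SV40 large T antigen. HT-1080 is a human fibrosarcoma line. Cells of each line received either siHNRNPH1, a small interfering RNA against HNRNPH1, or the control siNegative, both at 20 nM, and RNA was taken after 48 h. Each of the 4 groups held 3 short-read libraries, which the labels call biological replicates, and 1 long-read (IsoSeq) pool of full-length cDNA.

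NF-kB is a family of dimeric transcription factors. In resting cells the canonical dimer of p50 (from NFKB1) and RELA is held in the cytoplasm by inhibitors such as IkB-alpha (NFKBIA), and receptor signals release it by having the inhibitor degraded. The non-canonical branch runs through the kinase NIK (MAP3K14), which leads to processing of p100 (NFKB2) to p52, the partner of RELB. TRAF2, TRAF1 and the ubiquitin ligase cIAP2 (BIRC3) form part of the complexes at TNF receptors. TRAF1, NFKB2, RELB, NFKBIA, BIRC3 and the deubiquitinase A20 (TNFAIP3) are textbook target genes of the factor itself.

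Library totals were 107.7 M to 121 M (mega) expected counts in HEK-293T and 27.3 M to 32.7 M in HT-1080. Levels are given as CPM, a count divided by its library total in M, and since CPM is not divided by gene length, it is compared here between libraries and not between genes. HNRNPH1 itself fell from a mean of 1111 to 335 CPM in HEK-293T and from 619 to 230 CPM in HT-1080. One library, HEK-293T siHNRNPH1 replicate 1, stood apart, with HNRNPH1 at 234 CPM against 376 and 394 CPM in the other two, and HEK-293T results are given with and without it. A summed list of 8 mesenchymal tumour genes lay at 12470 to 12600 CPM in HT-1080 siNegative, at 9066 to 9094 CPM in HT-1080 siHNRNPH1 and at 265.7 to 422 CPM in HEK-293T. Its members differed: in HT-1080 the mean of MMP14 was 1510 CPM under siNegative and 2307 CPM under siHNRNPH1, and under siNegative TIMP3 was higher in HEK-293T (34.1 CPM) than in HT-1080 (4.94 CPM). A sum of 8 genes known in HEK-293 lay at 811.6 to 1351 CPM in HEK-293T and at 203.4 to 243.7 CPM in HT-1080. The difference rested mainly on IGF2BP1, NEFM and LIN28B. CDH2 was about equal under siNegative (92.4 CPM in HEK-293T, 90.5 CPM in HT-1080), and DLK1 had no count in any group. Of 8 lymphoid and myeloid markers, 3 (PTPRC, CD3E and MS4A1) had no count in HT-1080. The sum of these 8 lay at 37.2 to 40.5 CPM in HT-1080 siNegative and at 77.5 to 79.3 CPM in HT-1080 siHNRNPH1, of which CD68 held a mean of 37.9 and 74.3 CPM. In bulk RNA, fewer cells expressing a gene and less of its RNA per cell cannot be told apart.

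TRAF1 (ENSG00000056558.11) encodes an adaptor that binds TRAF2 and the cIAPs at TNF-family receptors. In HT-1080 siNegative it stood at 60.4, 54.5 and 57.2 CPM, and in HT-1080 siHNRNPH1 at 1.71, 1.81 and 2.32 CPM. All control libraries were far above all knockdown libraries of this line. The log2 fold change was -4.95 (SE 0.09), a level 30.9-fold lower, and 16 of 16145 genes tested in HT-1080 had a more negative one. In HEK-293T siNegative the values were 4.57, 3.73 and 3.95 CPM, and in HEK-293T siHNRNPH1 5.46, 4.10 and 4.12 CPM. These groups overlapped, with a log2 fold change of 0.14 (SE 0.19), or -0.05 (SE 0.10) without siHNRNPH1 replicate 1. The order of the 4 groups was thus HT-1080 siNegative (57.3 ± 2.95 CPM, SD, n = 3), HEK-293T siHNRNPH1 (4.56 ± 0.78), HEK-293T siNegative (4.08 ± 0.44) and HT-1080 siHNRNPH1 (1.95 ± 0.33), and the HEK-293T pair did not differ beyond its spread.

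**Figure D1:**
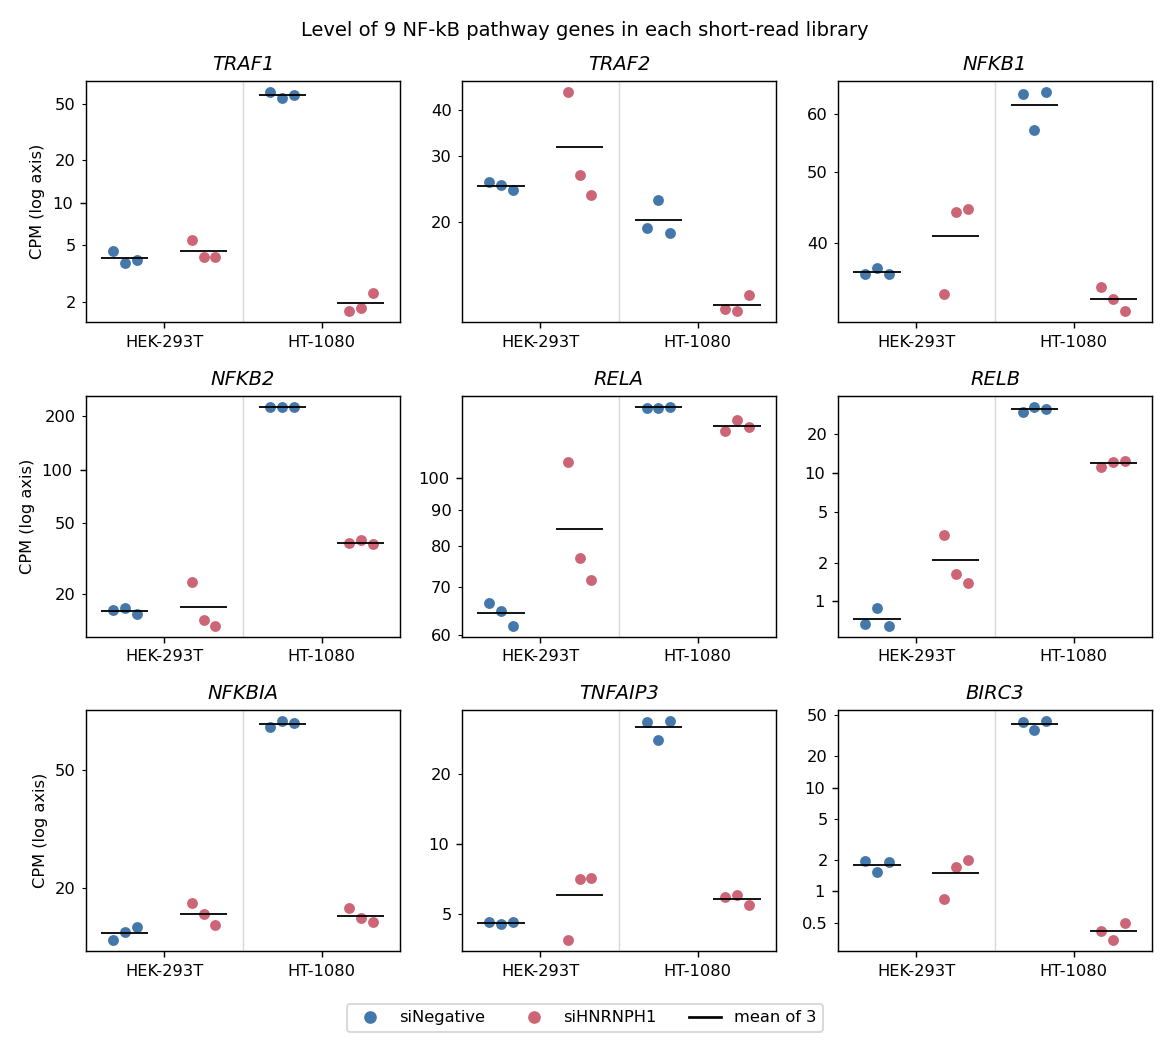
Level of each of the 9 genes in every short-read library, in CPM on a log axis whose range differs between panels. Points are single libraries (blue siNegative, red siHNRNPH1; replicates 1 to 3 from left to right) and the black line is the mean of 3. TRAF1 lies at 54.5 to 60.4 CPM in HT-1080 siNegative and at or below 5.46 CPM in every other library.

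In HT-1080 all 8 other genes were lower after siHNRNPH1 (8 of 8 at a Benjamini-Hochberg adjusted p under 0.05 by edgeR's quasi-likelihood test, the call used throughout). Of all genes tested in that line, 32.6% were called lower and 65.3% were called in either direction. The 8 genes had a median log2 fold change of -1.84, against 0.01 over all genes tested. BIRC3, NFKB2, TNFAIP3 and NFKBIA fell most, RELB, NFKB1 and TRAF2 less, and RELA least.

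BIRC3 (ENSG00000023445.16) had 1160, 1092 and 1321 counts in the siNegative libraries of HT-1080 and 12, 11 and 14 in the siHNRNPH1 libraries. These are 42.5, 36.3 and 43.6 CPM against 0.41, 0.34 and 0.49 CPM, with no overlap. The log2 fold change was -6.69 (SE 0.14, adjusted p = 3.46e-09), a level 103-fold lower, and 4 genes of the 16145 had a more negative value. In HEK-293T, BIRC3 was at 1.98, 1.53 and 1.91 CPM under siNegative and at 0.84, 1.71 and 1.99 CPM under siHNRNPH1, so the groups overlapped there.

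Both inhibitory members fell as well. NFKBIA (ENSG00000100906.12), the inhibitor of the canonical dimer, went from 69.5, 72.8 and 72.0 CPM to 17.1, 15.8 and 15.4 CPM in HT-1080. That is a log2 fold change of -2.22 (SE 0.06, adjusted p = 6.04e-09). TNFAIP3 (ENSG00000118503.17), whose product A20 trims ubiquitin chains from the signalling complexes, went from 33.5, 28.1 and 33.8 CPM to 5.93, 6.06 and 5.48 CPM. Its log2 fold change was -2.51 (SE 0.09, adjusted p = 1.93e-08). The groups did not overlap for either gene. In HEK-293T siNegative NFKBIA lay at 13.3 to 14.7 CPM and TNFAIP3 at 4.55 to 4.64 CPM.

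The subunits did not move by equal amounts. NFKB2 (ENSG00000077150.21), the p100 precursor, stood at 225, 226 and 227 CPM in HT-1080 siNegative and at 38.4, 39.8 and 38.2 CPM after siHNRNPH1, a log2 fold change of -2.61 (SE 0.04, adjusted p = 2.54e-09). Its dimer partner RELB (ENSG00000104856.15) went from 29.6, 32.8 and 31.7 CPM to 11.1, 12.3 and 12.4 CPM, a log2 fold change of -1.46 (SE 0.07, adjusted p = 1.22e-07). NFKB1 (ENSG00000109320.14), the p50 precursor, went from 63.8, 57.0 and 64.3 CPM to 34.9, 33.6 and 32.3 CPM, a log2 fold change of -0.94 (SE 0.06, adjusted p = 6.29e-07). These non-canonical and p50 subunits separated the groups without overlap. RELA (ENSG00000173039.20), the main activating subunit, was at 125.6, 125.6 and 126.1 CPM in siNegative and at 117, 121 and 118 CPM in siHNRNPH1, also without overlap. Its log2 fold change of -0.15 (SE 0.04, adjusted p = 0.00633) was the smallest of the 8, and 6222 of the 16145 genes had a more negative one. The RELA call was lost when libraries were scaled by their totals alone (log2 fold change -0.09) and when the spread was estimated over all 12 libraries (-0.17), with adjusted p between 0.0792 and 0.49.

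TRAF2 (ENSG00000127191.18), the adaptor that brings the cIAPs to the receptor, was at 19.2, 22.8 and 18.6 CPM in HT-1080 siNegative and at 11.7, 11.5 and 12.7 CPM after siHNRNPH1. The log2 fold change was -0.82 (SE 0.09, adjusted p = 3.46e-05). Whether the counting used strand is not given in the sources used here, so reads of TRAF2, NFKB1 and RELA cannot be told apart from those of genes annotated on the opposite strand over them. TRAF1 overlaps PHF19 on the same strand, and TNFAIP3 overlaps WAKMAR2.

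In HEK-293T none of the 8 genes was called (edgeR, 0 of 8, where 10.0% of all genes were called in either direction). At an unadjusted p under 0.05 the count was 1 gene, and DESeq2 called 1, which was RELB. RELB stood at 0.67, 0.89 and 0.64 CPM under siNegative and at 3.29, 1.62 and 1.38 CPM under siHNRNPH1, so every knockdown library was above every control. Its log2 fold change was 1.51 (SE 0.40), with an adjusted p of 0.0708. RELA was at 66.5, 64.9 and 61.8 CPM under siNegative and at 105.4, 77.1 and 71.8 CPM under siHNRNPH1, a log2 fold change of 0.38 (SE 0.20, adjusted p = 0.286). The other 6 had log2 fold changes from -0.30 (BIRC3) to 0.36 (TNFAIP3). Approximate 95% intervals reached from -0.91 to 0.32 for BIRC3 and from -0.10 to 0.81 for TNFAIP3. All intervals in this text assume a normal distribution of the estimate and are likely too narrow with 3 libraries per group.

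Without HEK-293T siHNRNPH1 replicate 1, 5 of the 8 were called, where 61.8% of all genes were. NFKB1 (log2 fold change 0.22), RELA (0.15), RELB (0.98) and TNFAIP3 (0.57) were then higher and NFKB2 (-0.28) was lower. TRAF2 (-0.04), NFKBIA (0.09) and BIRC3 (-0.03) were not called. The left-out library held the highest TRAF2 (44.6 CPM against 26.8 and 23.7), NFKB2 (23.2 against 14.2 and 13.2) and RELA values of its group, and the lowest NFKB1 (34.1 against 44.2 and 44.6), BIRC3 and TNFAIP3 values (3.87 against 7.06 and 7.20). The share of these 5 calls lay near that of all genes.

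**Figure D2:**
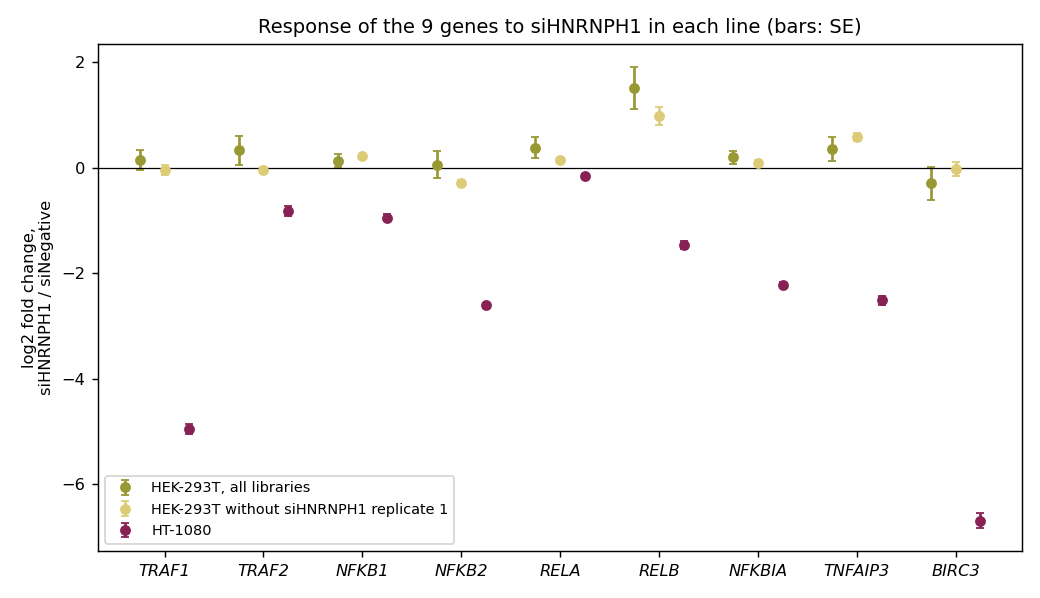
Log2 fold change of each gene after siHNRNPH1, as points with the standard error, in HEK-293T with all libraries, in HEK-293T without siHNRNPH1 replicate 1, and in HT-1080. The HT-1080 points run from -0.15 (RELA) to -6.69 (BIRC3), whereas the HEK-293T points with all libraries run from -0.30 to 1.51.

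Whether the response itself differed between the lines was tested as a line by siRNA interaction over all 12 libraries. The effect was lower in HT-1080 than in HEK-293T for 7 of 8 genes, where 10.8% of all genes were called in that direction. The difference of the log2 fold changes (HT-1080 minus HEK-293T) was -6.46 for BIRC3 (SE 0.38, adjusted p = 5.03e-06), -3.05 for RELB (SE 0.44, adjusted p = 8.18e-04) and -2.94 for TNFAIP3 (SE 0.25, adjusted p = 3.30e-05). It was -2.75 for NFKB2 (SE 0.30, adjusted p = 1.49e-04), -2.49 for NFKBIA (SE 0.16, adjusted p = 6.10e-06) and -1.15 for NFKB1 (SE 0.13, adjusted p = 1.71e-04). RELA, at -0.61 (approximate 95% interval -1.05 to -0.18, adjusted p = 0.0796), was not called, and TRAF1, described only, was at -5.17. Without HEK-293T siHNRNPH1 replicate 1, 8 of 8 were called, against 26.4% of all genes, with differences from -0.36 (RELA) to -6.72 (BIRC3).

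The TRAF2 difference of -1.24 (SE 0.33, adjusted p = 0.0248) was the least secure of the 7. It lost its call when any one HEK-293T siNegative library, any one HT-1080 siHNRNPH1 library or HT-1080 siNegative replicate 2 was left out, and with the replicate number as a block. In those fits its value lay between -1.14 and -1.28 and its adjusted p between 0.0532 and 0.0685, whereas without HEK-293T siHNRNPH1 replicate 1 the value was -0.83 and the adjusted p 8.58e-06.

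Under siNegative alone, 7 of the 8 genes were higher in HT-1080 than in HEK-293T, where 40.8% of all genes were called higher. RELB differed most, by 5.67 on the log2 scale (SE 0.10, adjusted p = 1.86e-11), followed by BIRC3 with 4.75 (SE 0.10, adjusted p = 5.78e-11) and NFKB2 with 4.07 (SE 0.05, adjusted p = 1.66e-12). TNFAIP3 was higher by 3.04, NFKBIA by 2.60, RELA by 1.22 and NFKB1 by 1.01, and TRAF1, described only, by 4.07. TRAF2 was not called, with a difference of -0.05 (approximate 95% interval -0.20 to 0.10, adjusted p = 0.544). It was called lower in HT-1080 when libraries were scaled by their totals (-0.30), without a low-count filter (-0.19) and without HT-1080 siNegative replicate 2 (-0.17). Scaling by totals also moved the median of all genes by -0.25 in this comparison and by 0.11 in the interaction. The lines were deposited in separate tables at different depths, so line, depth and preparation cannot be told apart here. The HT-1080 siNegative libraries are the control of the HT-1080 knockdown and one side of this comparison, so both sets of values share them.

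The genes that were highest in HT-1080 controls were not all brought to the HEK-293T level. After siHNRNPH1, HT-1080 held TRAF1 at 1.95 ± 0.33 and BIRC3 at 0.41 ± 0.08 CPM, both below every HEK-293T library. NFKBIA (16.1 ± 0.88) and TNFAIP3 (5.82 ± 0.31 CPM) lay within the range of all HEK-293T libraries of both siRNAs. Against HEK-293T siNegative alone, both stayed above every library. NFKBIA was at 15.4 to 17.1 against 13.3 to 14.7 CPM, and TNFAIP3 at 5.48 to 6.06 against 4.55 to 4.64 CPM. NFKB2 (38.8 ± 0.92) and RELB (11.9 ± 0.71 CPM) stayed above every HEK-293T library of either siRNA. These are comparisons of levels across tables of different depth, described without a test.

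The promoters of the members were searched for the kappaB motif, the site that NF-kB dimers bind. RefSeq windows (GRCh38.p14, 250 bases before to 50 after the annotated start) were used for 8 of the 9 genes. A loose form of the motif, GGGNNNNNCC on either strand, was in 8 of these 8 windows and in 58.0% of 27305 promoters. The stricter kappaB consensus, with a purine after the G run, A or T at its centre and pyrimidines before the last C pair, was in 4 of the 8 (NFKB1, NFKBIA, BIRC3 and TNFAIP3) and in 5.7% of all promoters. This consensus was added after seeing the data, and the members had been listed as partners or targets of the pathway. The shares are therefore described without a test. Consensus matches were also counted in the loose form and, in TNFAIP3, their printed windows overlap. The 6 consensus matches follow with 10 bases on each side, on the strand of the gene, with the motif in capitals, and then the single loose match of TRAF1.
NFKB1 at chr4:102501300-102501329, plus strand: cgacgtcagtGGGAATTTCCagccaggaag
NFKBIA at chr14:35404811-35404840, minus strand: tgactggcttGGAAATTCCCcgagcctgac
BIRC3 at chr11:102317275-102317304, plus strand: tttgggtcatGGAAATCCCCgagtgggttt
BIRC3 at chr11:102317339-102317368, plus strand: tattaccgctGGAGTTCCCCtaagtcctaa
TNFAIP3 at chr6:137867182-137867211, plus strand: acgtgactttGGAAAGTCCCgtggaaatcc
TNFAIP3 at chr6:137867194-137867223, plus strand: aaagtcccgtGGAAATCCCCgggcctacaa
TRAF1 at chr9:120929135-120929164, minus strand: cggaagctccGGGCCTGGCCgccggtaggc
The consensus matches began 49 to 199 bases before the annotated start, and the TRAF1 match lay 17 bases after it. Of the 4 genes with a consensus match, BIRC3, TNFAIP3 and NFKBIA had HT-1080 log2 fold changes of -6.69, -2.51 and -2.22, and NFKB1 one of -0.94. NFKB2 and TRAF1, with values of -2.61 and -4.95, had no consensus match in their windows. The windows lie at the annotated starts, and where the files' coordinates are those of GRCh38, every HT-1080 long-read model of TRAF1 and NFKB2 began downstream of its gene's window. The bases before those HT-1080 starts were not searched.

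The 2 lines differed in which TRAF1 transcripts were counted. The first, ENST00000373887.8, held 53.4%, 49.7% and 89.7% of the TRAF1 expected counts in HEK-293T siNegative and 54.9%, 89.2% and 100% in HEK-293T siHNRNPH1. It had 0 counts in every HT-1080 library, which allows a share of up to 0.0598% of the 5019 counts under siNegative and of up to 1.71% of the 175 counts under siHNRNPH1, for counting error only. The second, ENST00000546084.5, held 20.8%, 9.94% and 12.5% in HT-1080 siNegative and 19.7%, 60.7% and 33.4% in HT-1080 siHNRNPH1. It had 0 counts in the 6 HEK-293T libraries, which allows up to 0.102% of 2946 counts. The rest fell on ENST00000540010.1, which held 79.2%, 90.1% and 87.5% in HT-1080 siNegative and 10.3% to 50.3% in HEK-293T siNegative. Within each line the siRNA groups overlapped in these shares, and the HT-1080 knockdown shares rest on 50, 59 and 66 counts. RSEM splits reads among transcripts by a model, so these are estimates.

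The long-read models of TRAF1 also differed between the lines, in where they began. They were not matched to the transcripts counted by RSEM. All 9 TRAF1 models lay on the minus strand of chromosome 9 (coordinates as in the files, which name no build; the submitters' processing notes name GRCh38.p13). Both HEK-293T models, 1 per pool, began at 120929154. The 7 HT-1080 models, 5 from siNegative and 2 from siHNRNPH1, began between 120926085 and 120926182, at least 2972 bases further downstream. An intron from 120926302 to 120926549 was in 2 of 2 HEK-293T models and in 0 of 7 HT-1080 models, and the next 6 introns were in all 9. Collapsed models can lack their 5′ end, carry no read counts and come from 1 pool per group, so no test was made.

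**Figure D3:**
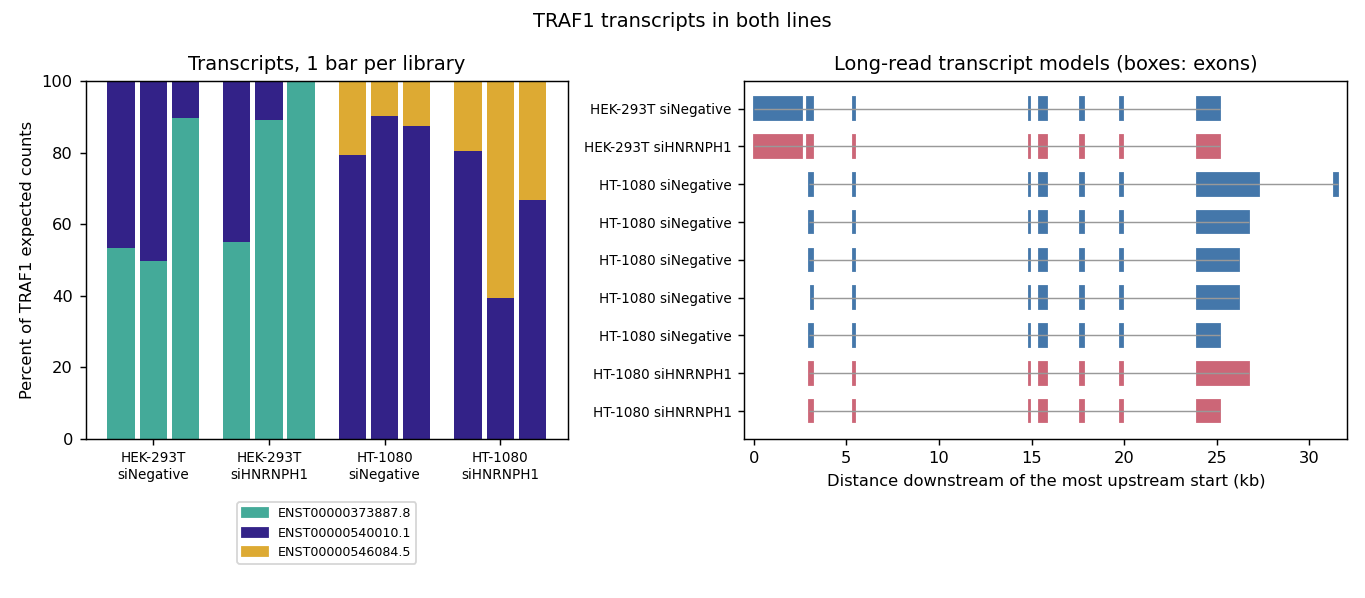
Left, the percent of TRAF1 expected counts held by each of 3 transcripts, 1 stacked bar per short-read library. Right, the exons (boxes) of all TRAF1 long-read models by pool, as distance in kb downstream of the most upstream start. ENST00000373887.8 is seen in HEK-293T bars and has 0 counts in HT-1080, and the 7 HT-1080 models begin about 3 kb downstream of both HEK-293T models.

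The number of long-read models of the other members followed no counts and had no replicate. In HT-1080 the siNegative and siHNRNPH1 pools held 6 and 0 models of BIRC3, 21 and 5 of NFKB2, 13 and 1 of TNFAIP3, 5 and 2 of NFKBIA and 3 and 1 of RELB. For RELA they held 6 and 9, for NFKB1 18 and 10 and for TRAF2 3 and 1. In HEK-293T no model of BIRC3, NFKB2, NFKBIA or RELB was found in either pool. These pools held 72186 and 68078 models in all for HT-1080, and 64705 and 94847 for HEK-293T.

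Transcript usage, which is how a gene's counts divide over its transcripts, was compared with limma diffSplice. Members with a mean of at least 200 counts in the line were used. For each called member, the transcript with the largest difference in mean share between the siRNA groups is shown first. It was picked by these same values, so its overlap and exact p are a description and no further support. On simulated data this test also called many unchanged genes, so its adjusted p-values in both lines may be too small. In HEK-293T 1 of 6 such members other than TRAF1 was called, RELA (adjusted p = 1.80e-04), where 9.59% of all genes were called. RELA transcript ENST00000612991.4 held 4.34%, 4.52% and 11.3% under siNegative and 0.70%, 2.19% and 1.08% under siHNRNPH1. ENST00000526283.6 had 0 counts under siNegative, which allows up to 0.0134% of 22414 counts, and held 8.37%, 3.11% and 4.07% under siHNRNPH1. The groups did not overlap for either, and the exact permutation test of 3 against 3 libraries cannot go below p = 0.1, the value found for both. The leading RELA transcript, ENST00000406246.8, held 85.1% ± 4.34 and 81.8% ± 0.58 (SD, n = 3). RELA was also called without siHNRNPH1 replicate 1 (adjusted p = 1.13e-05), a fit in which 41.6% of all genes were called, and over the leave-one-out fits its adjusted p reached 0.0292. With transcripts of at least 5% of the gene only, RELA could not be tested.

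In HT-1080 2 of 7 such members were called, NFKB2 (adjusted p = 5.68e-06) and RELB (adjusted p = 0.0377), where 21.2% of all genes were called. With 7 members, this count lies near that share. TRAF2 had too few transcripts past the filter. NFKB2 transcript ENST00000661543.1 held 23.2%, 22.5% and 22.6% under siNegative and 33.8%, 28.1% and 37.8% under siHNRNPH1, while ENST00000652277.1 held 43.5%, 43.3% and 45.0% and then 33.0%, 40.0% and 38.7%. Neither pair of groups overlapped (exact p = 0.1 for each by the permutation test, the smallest possible), but the first transcript was picked for its difference. The NFKB2 call held in every alternative run, with adjusted p up to 0.0171. RELB transcript ENST00000221452.13 held 79.8%, 80.3% and 86.8% and then 81.1%, 66.0% and 74.1%, groups that overlapped (exact p = 0.3). The RELB call was lost without siNegative replicate 2 or 3 or siHNRNPH1 replicate 2 or 3, and with an F test, at adjusted p from 0.0636 to 0.342. BIRC3 shares after siHNRNPH1 rest on 11 to 14 counts per library.

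**Figure D4:**
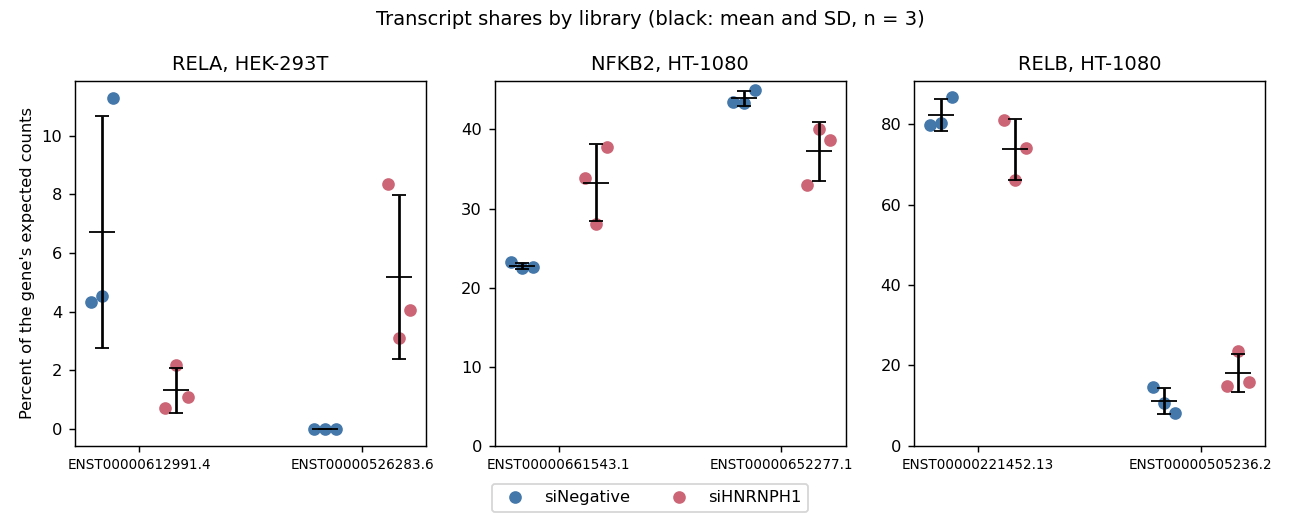
Percent of the gene's expected counts held by the named transcripts of RELA in HEK-293T and of NFKB2 and RELB in HT-1080. Points are libraries and black bars the mean and SD of 3, with axes that differ between panels. For NFKB2, ENST00000661543.1 lies at 22.5% to 23.2% under siNegative and at 28.1% to 37.8% under siHNRNPH1.

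Transcript shares under siNegative were also compared between the lines, for other members with a mean of at least 200 counts in each line. For each, the transcript with the largest difference in mean share is given. It was picked by these same values, so no test was made. NFKB2 transcript ENST00000652277.1 held 17.0% ± 6.65 in HEK-293T and 43.9% ± 0.91 in HT-1080. NFKB1 transcript ENST00000509165.2 held 56.1% ± 1.51 and 35.6% ± 6.18, and TNFAIP3 transcript ENST00000421450.2 held 3.78% ± 6.55 and 25.8% ± 7.08 (SD, n = 3 each). The largest difference of NFKBIA, for ENST00000216797.10, was 77.5% ± 8.91 against 83.6% ± 2.94, and these libraries overlapped. Libraries of the lines also overlapped for RELA transcript ENST00000406246.8 (85.1% ± 4.34 against 80.3% ± 1.38). The same held for TRAF2 transcript ENST00000414589.1 (1.67% ± 0.24 against 1.02% ± 0.52).

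Around the 9 members, 100 further pathway genes were counted in 5 lists by role, and these lists were also drawn up with earlier results of these data known. Among 21 target genes tested in HT-1080, 17 were lower (81.0%), 3 higher (14.3%) and 1 not called, with a median log2 fold change of -1.38. Over all genes tested in HT-1080, 32.6% were lower and 32.7% higher. Of the lower targets, MMP9, ICAM1 and CCL5 (0 to 5 counts per siHNRNPH1 library) passed the low-count filter only through their siNegative libraries. For these genes only a fall could be counted. The matrix protease MMP9 had 221 to 245 counts per siNegative library and 2 to 9 per siHNRNPH1 library (-5.44). The adhesion molecule ICAM1 went from 3.86 ± 0.59 to 0.13 ± 0.01 CPM (-4.88) and the BCL2 relative BCL2A1 from 8.20 ± 0.90 to 0.75 ± 0.23 CPM (-3.53). ICAM1 had 4 counts in each HT-1080 siHNRNPH1 library. The 3 targets that rose, named after their values were seen, were PTGS2 (the inducible cyclooxygenase, 3.05), IER3 (0.66) and CFLAR (0.15). PTGS2 went from 4.67 ± 0.58 to 40.7 ± 0.41 CPM, opposite to most of its list.

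The upstream lists in HT-1080 are read against the same shares. Among their lower genes, the ligand TNFSF15 and the receptor TNFRSF13C also passed the low-count filter only through their siNegative libraries. Of 5 ligands tested, 4 were lower (median -0.58), among them IL1A (-0.85) and IL1B (-0.51), the latter from 854 ± 8.73 to 631 ± 18.9 CPM. Of 13 receptors, 6 were lower (46.2%) and 6 higher (46.2%), with a median of 0.08. The costimulatory receptor TNFRSF9 (4-1BB), which signals through TRAF1 and TRAF2, fell by 3.36 on the log2 scale, from 31.4 ± 1.21 to 3.21 ± 0.31 CPM. The sensor of double-stranded RNA TLR3 was lower (-1.22) and the interleukin-1 receptor IL1R1 higher (1.10). Of 28 adaptors and kinases, 10 were lower (35.7%, near the 32.6% of all genes) and 5 higher (17.9%), with a median of -0.09. The lower ones included MAP3K14, the kinase of the non-canonical branch (-1.64, from 204 ± 3.63 to 68.6 ± 2.54 CPM), XIAP (-1.10) and TRAF5 (-1.04). Of 15 further subunits and inhibitors, 6 were lower (40.0%) and 3 higher (20.0%, median -0.15), with the A20 partner TNIP1 at -1.18 and TAX1BP1 at 0.87. The inhibitor NFKBIE fell from 24.2 ± 1.77 to 3.17 ± 0.48 CPM. Each named gene of these lists passed the same test (adjusted p at most 0.0249).

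In HEK-293T 4 of 76 list genes tested were called by edgeR, where 10.0% of all genes were, and 12 by DESeq2. The count was 0 with the replicate number as a block, 0 without any one siNegative library or siHNRNPH1 replicate 2, 1 without siHNRNPH1 replicate 3 and 50 without siHNRNPH1 replicate 1. IKBKB, the catalytic kinase that marks IkB-alpha for degradation (-0.81), and TANK (-0.55) were lower among 29 adaptors and kinases. GADD45B (1.49) and TNFAIP2 (0.71) were higher among 16 target genes. Without siHNRNPH1 replicate 1, 7 of 16 targets were higher, 8 receptors were higher and 2 lower of 14, and 8 subunits and inhibitors were higher and 4 lower of 15. Of 29 adaptors and kinases, 13 were then lower and 6 higher. In that fit 30.5% of all genes were higher and 31.3% lower. In the interaction, the effect on 12 of 22 targets was lower in HT-1080 and that on 1, PTGS2, was higher, where 10.8% of all genes were lower and 8.13% higher.

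**Figure D5:**
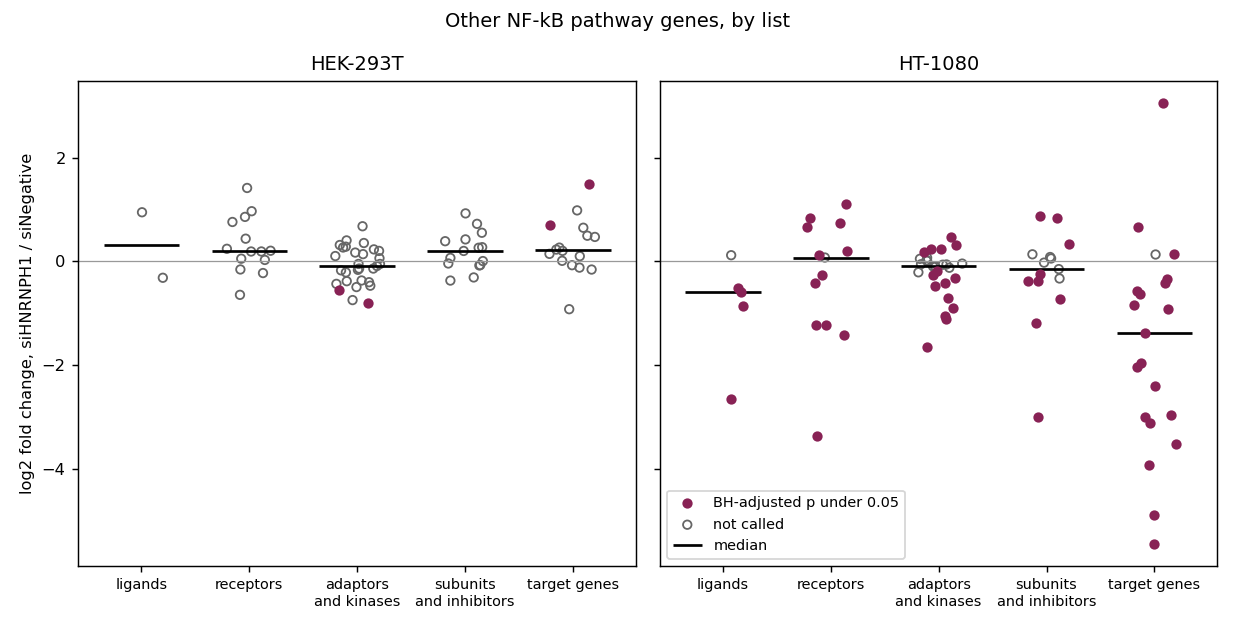
Log2 fold change of each tested gene of the 5 lists in HEK-293T (left) and HT-1080 (right). Filled points were called, open points were not, and the bar is the median. The HT-1080 target genes spread from -5.44 (MMP9) to 3.05 (PTGS2) about a median of -1.38.

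The genes most like TRAF1 over the 12 short-read libraries were ranked by Pearson's r of log2(CPM + 0.5) among 4837 genes whose group means spanned at least 2 on that scale. They were SLCO4A1 (r = 0.995), an organic anion transporter, ICAM1 (r = 0.990), IL23A (r = 0.987), BIRC3 (r = 0.987) and NFKBIE (r = 0.984). The libraries fall in 4 groups and share depth within a line, so r mostly describes differences in level between the groups. SLCO4A1 had back-transformed group means of 9.75 and 11.5 CPM in HEK-293T (siNegative, siHNRNPH1) and of 32.4 and 7.72 CPM in HT-1080. For NFKBIE these were 5.26 and 5.38, and 24.1 and 3.15 CPM. Among genes that lie beside TRAF1 in the RefSeq gene table, PHF19 fell in HT-1080 (log2 fold change -1.34, SE 0.06, adjusted p = 1.01e-07) and PSMD5 fell (-0.55), while CUTALP rose (0.61). C5, at -0.85 (SE 0.36, adjusted p = 0.0619), was not called.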

How the data were processed

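The deposited short-read values were expected counts per transcript variant, estimated by the authors with RSEM per the labels, in 1 table per line with 251295 transcripts. The genome build named in the submitters' processing notes is GRCh38.p13; the RSEM version, annotation and strand setting are not given in the sources used here. The deposited IsoSeq files list exon positions without counts. Expected counts were summed per gene, rounded, filtered (filterByExpr), scaled by TMM and tested with edgeR 4.0.16 (quasi-likelihood, robust, two-sided) in R 4.3.3, by line, by line and siRNA, and between controls, with Benjamini-Hochberg adjustment over all genes tested. Transcript usage was tested with limma 3.58.1 (voom, diffSplice, Simes), and DESeq2 1.42.0 was an alternative. The steps were tested on simulated data, where the usage test also called many unchanged genes. Members and lists were chosen with earlier results of these data known. From each list, up to 3 called genes with the largest absolute change and a mean of at least 50 counts were named, plus the 5 genes most like TRAF1 and its neighbours in the gene table. The kappaB consensus was added after seeing the data. Gene names and promoters came from RefSeq tables (GRCh38.p14). Protein sequences were not used here.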

Additional observations from a re-analysis of the deposited data

Results flagged for a closer look

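For 7 of the 8 members other than TRAF1, the siRNA effect was lower in HT-1080 by the line by siRNA interaction of edgeR. Of all genes tested, 10.8% were called in that direction. The TRAF2 call was the least secure and was lost in several alternative fits, as given above. The HT-1080 minus HEK-293T differences in log2 fold change were -1.24 for TRAF2, -1.15 for NFKB1, -2.75 for NFKB2, -3.05 for RELB, -2.49 for NFKBIA, -6.46 for BIRC3 and -2.94 for TNFAIP3. In 3 against 3 libraries per line, HT-1080 fell for each of the 7, and no HEK-293T effect of these genes passed the test with all libraries. Without HEK-293T siHNRNPH1 replicate 1, NFKB1, NFKB2, RELB and TNFAIP3 were called in HEK-293T, where 61.8% of all genes were.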

How the results depend on the processing

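In HT-1080 94 of 96 alternative values of the 8 members other than TRAF1 kept direction and call, the 2 exceptions being RELA as given above. Between the lines under siNegative 77 of 80 did, and 125 of 136 for the interaction. In HEK-293T 87 of 96 did, 3 changed sign and 6 gained a call. The members called in HEK-293T (0) became 1 with DESeq2, 1 with a spread shared over 12 libraries, and 0 to 5 when leaving out 1 library each. Pathway list genes called in HEK-293T (4, where 10.0% of all genes were called) became 12 with DESeq2, 0 with the replicate block and 22 with the shared spread. Leaving out 1 library each gave 0 to 50, with 50 without siHNRNPH1 replicate 1, where 61.8% of all genes were called. In HT-1080 the list count of 60, where 65.3% of all genes were called, became 38 with the shared spread. Member and list counts can move with the share of all genes called. That share is not given here for the other fits. Leaving out 1 library each, the HEK-293T log2 fold change ranged from -0.047 to 0.22 for TRAF1, from -0.043 to 0.51 for TRAF2 and from -0.28 to 0.21 for NFKB2, each lowest without siHNRNPH1 replicate 1. With the replicate block NFKB2 in HEK-293T was at -0.0015. Deviations from the group mean correlated at r of -0.003 to 0.097 between same-numbered libraries and at -0.088 to 0.063 between differently numbered ones. These few values cannot tell whether the numbers pair the samples. Members with changed usage went from 1 to 0 in HEK-293T with transcripts of at least 5% only, because RELA could not be tested there. In HT-1080 they went from 2 to 1 with the F test and to between 1 and 2 when leaving out 1 library each. The 8 members with a loose motif match became 4 with the kappaB consensus. The causes were not tested. In HT-1080 after siHNRNPH1, BIRC3 and TRAF1 transcript shares rest on few counts per library.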
